A study of Mus musculus with 9 samples.

Results

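Adipokines are proteins by which fat cells signal to other tissues. Adiponectin and leptin are the classical hormones of this kind, resistin is a fat cell hormone in mice that in humans comes mainly from macrophages, and adipsin, retinol-binding protein 4 and chemerin are carried in the blood. Thermogenic fat cells, which burn fuel for heat, have secreted factors of their own, among them neuregulin 4. The adipokine genes described here are 9 genes chosen by name: Adipoq, Lep, Retn, Cfd, Rbp4, Nampt, Rarres2, Nrg4 and Car3. All 9 were found among the 24013 gene symbols of the data, and all 9 were among the 11542 genes that passed the filter on low values. To pass, a gene needed 3 or more of the 9 libraries at an RPKM of 1 or higher, where RPKM is the read number scaled to exon length and to the depth of the library. Car3 encodes carbonic anhydrase III, an abundant cytosolic enzyme of fat cells and not a hormone.

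The libraries hold poly(A) RNA of mouse beige adipocytes that were grown in a dish from inguinal stromal vascular cells, the precursors of a fat depot under the skin. There were 3 libraries from F1 offspring, 3 from 129X1/SvJ (129), which the series describes as resistant to obesity, and 3 from C57BL/6J (B6), described as prone to it. Cells of all 3 groups received the same mixture at confluence, for 48 hours. It held 850 nM insulin, 1 nM of the thyroid hormone T3 and 1 µM rosiglitazone, an agonist of the fat cell regulator PPARγ, with dexamethasone at 1 µM, indomethacin at 125 nM, isobutylmethylxanthine at 0.5 mM and 10% serum. Serum, insulin, T3 and rosiglitazone were then kept on, and the libraries were taken at day 7, so every group carried the same adipogenic drug. The labels name no age, sex or number of animals, give no direction of the cross, and do not tell whether replicate libraries stem from different mice or dishes. P-values therefore measure the spread between these libraries, which may be technical.

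Depth was 39686986 to 53410947 assigned reads in F1, 23710908 to 28473083 in 129 and 19130022 to 26931438 in B6. The adipocyte label was borne out by the markers: all 16 mature adipocyte genes examined passed the filter, and Fabp4, a fatty acid carrier of fat cells, had the highest RPKM of every library. The summed RPKM of those 16 genes was 41322 to 43522 in F1, 37590 to 40225 in 129 and 33905 to 38288 in B6. Fabp4 alone made up most of each sum, with means of 31345.1 in F1, 26914.7 in 129 and 23544.5 in B6. The order of the sums is thus not that of the list: its median log2 fold change was -0.11 in 129 against B6 and -0.09 in F1 against B6. The 12 fibroblast and progenitor markers summed to 2823 to 3177 in F1, 4142 to 4405 in 129 and 2892 to 3193 in B6, and the 13 macrophage markers to 44.3 to 65.0 in F1, 24.2 to 52.8 in 129 and 50.7 to 64.1 in B6. The collagen genes Col1a1 and Col3a1 made up most of the former sums, and Lyz2 was the largest part of the latter. Of the 11 fibroblast and progenitor markers tested, 1 was higher and 4 lower in F1 than in B6, against 11.0% and 20.2% of all genes. Of the endothelial, smooth muscle, mesothelial and epithelial, and lymphocyte and neutrophil markers, 2 of 8, 7 of 8, 1 of 9 and 1 of 8 passed the filter, and S100a9 was listed at 0 in all libraries. The part of these cell type markers in the differences below was not tested. In such bulk samples, fewer cells of a type and less RNA per cell cannot be told apart.

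The 9 genes spanned a wide range of levels. Adipoq and Car3 ranked 20 and 34 in F1, 20 and 38 in 129, and 16 and 66 in B6 by mean RPKM among the genes tested. Rbp4, Retn, Cfd, Nampt and Rarres2 lay between 60.9 and 326 RPKM in mean, Nrg4 between 3.61 and 6.24, and Lep between 1.09 and 1.41. Per kilobase of exon, Adipoq RNA exceeded Lep RNA 1241-fold in F1, 911-fold in 129 and 1175-fold in B6 (means of 3 within-library ratios, SD 115, 27.9 and 39.4). Together the 9 genes took 0.476% to 0.524% of the assigned reads in F1, 0.418% to 0.441% in 129 and 0.417% to 0.433% in B6.

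**Figure D1:**
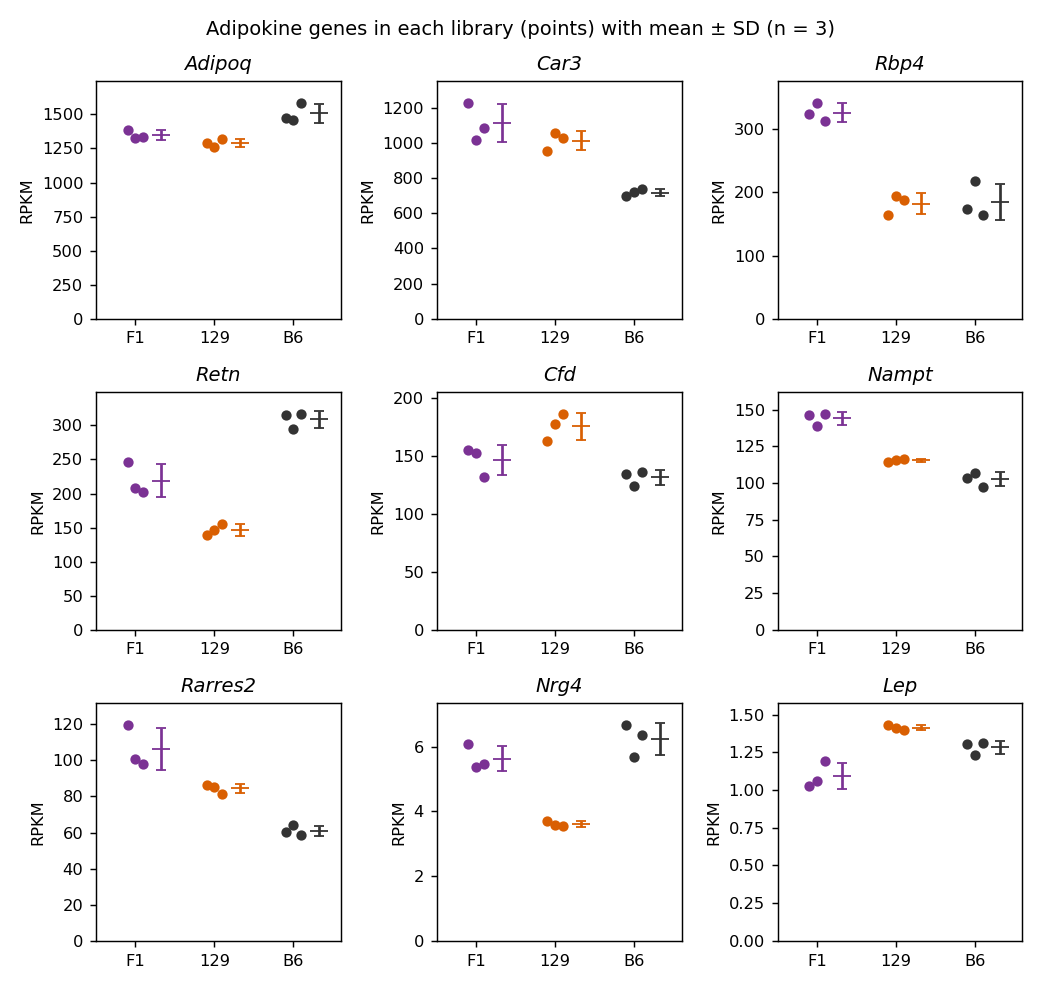
RPKM of each adipokine gene (vertical axes, from 0) in the 3 libraries of F1, 129 and B6 (points), with the mean and SD of each group beside them. Rbp4, Nampt and Rarres2 were highest in all 3 F1 libraries, and Retn and Nrg4 were lowest in all 3 libraries of 129.

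The first comparison set 129 against B6, the parents whose difference in adipocyte browning the series examines. Of the 9 genes, 4 were higher in 129 (Cfd, Nampt, Rarres2 and Car3), 3 were lower (Retn, Nrg4 and Adipoq), and Lep and Rbp4 did not pass. The threshold was an adjusted p of 0.05 from limma on log2(RPKM + 1), and 37.5% of all genes tested passed it, 15.9% as higher and 21.7% as lower. With rescaling of the libraries by median of ratios these calls became 2184 higher and 2075 lower, in place of 1834 and 2499, and those of the 9 genes stayed at 4 and 3. The libraries of the 2 strains did not overlap for 8 of the 9 genes, against 49.9% of all genes. The median absolute log2 fold change was 0.41 over the 9 genes and 0.12 over all genes, and the signed medians were 0.08 and -0.03. The largest change was that of Retn, at 0.474 of the B6 mean. An exact permutation test of 3 against 3 libraries cannot give a two-sided p below 0.1, and that value was reached by the 8 genes whose strains did not overlap.

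F1 was then set against each parent, and against their midpoint on the log2 scale, called the mid-parent value. Rbp4, Nampt and Rarres2 were higher in F1 than in both parents, a pattern that 2.82% of all genes showed. Their F1 libraries also lay above all 6 parental ones, as for 5.72% of all genes. Called lower in F1 than in both parents were 4.95% of all genes. Lep was called lower than 129 and missed the threshold against B6 (unadjusted p = 0.0542, adjusted p = 0.125). Against B6 it passed in 1 of 17 other settings, that with no variance trend, where it passed against both. Against B6, 4 genes were higher in F1 (Rbp4, Rarres2, Car3 and Nampt) and 1, Retn, was lower, where 31.2% of all genes passed, 11.0% as higher and 20.2% as lower. The libraries of F1 and B6 did not overlap for 7 of the 9 genes, against 44.2% of all genes. Against 129, 5 were higher in F1 (Rbp4, Retn, Nrg4, Rarres2 and Nampt) and 2 lower (Cfd and Lep), where 27.7% of all genes passed, 12% as higher and 15.7% as lower. Those of F1 and 129 did not overlap for 8 of the 9, against 44.5%. Against the mid-parent value, 5 were higher in F1 (Rbp4, Rarres2, Nampt, Car3 and Nrg4) and 1, Lep, was lower, where 23.2% of all genes passed, 8.35% as higher and 14.8% as lower. The median log2 fold changes of the 9 genes in these comparisons were 0.15, 0.32 and 0.20, against -0.04, -0.01 and -0.03 over all genes. With the same rescaling, the calls over all genes against B6 became 1735 higher and 1753 lower in place of 1270 and 2329. Those against the mid-parent value became 1298 and 1348 in place of 964 and 1712. The counts of the 9 genes then stayed at 4 and 1 against B6, and against the mid-parent value 5 remained higher while Lep did not pass (adjusted p = 0.056). All of these comparisons share libraries, so their values are set side by side and are not independent of each other.

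**Figure D2:**
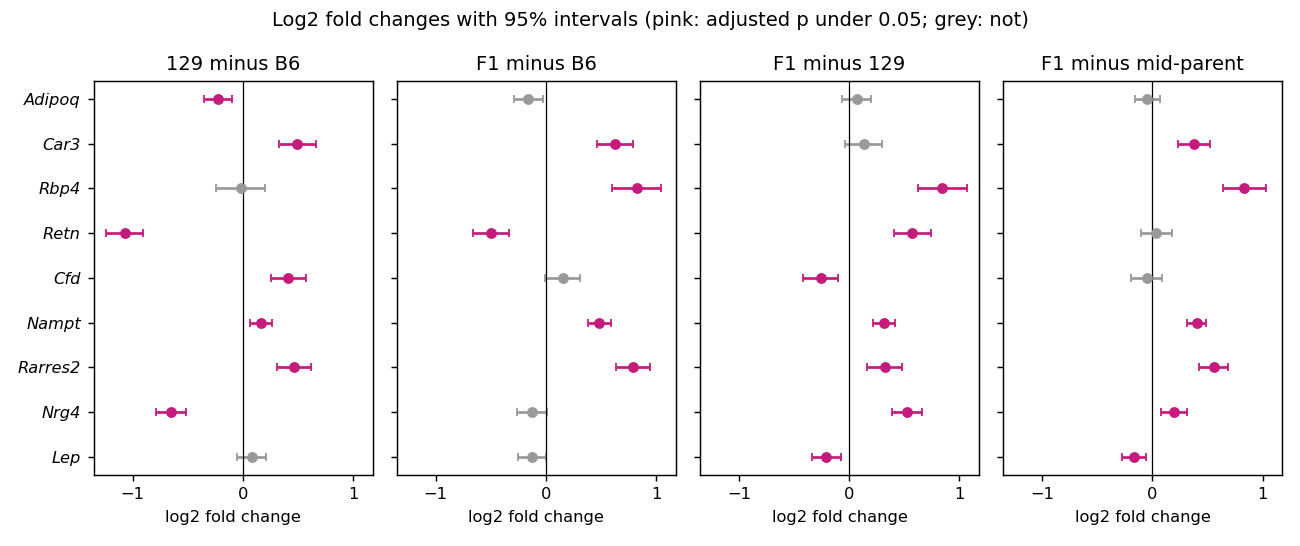
Log2 fold change on the log2(RPKM + 1) scale (horizontal axes) with 95% intervals from limma for each adipokine gene in the 4 comparisons. Pink marks an adjusted p under 0.05 and grey one above it; Retn at -1.07 in 129 minus B6 lies farthest from 0.

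Adiponectin raises insulin sensitivity and circulates as multimers. Its gene Adipoq (chromosome 16, 23146609 to 23158041, 3 exons; all coordinates of genes are on mm9) had 1389, 1324 and 1337 RPKM in F1, 1288, 1259 and 1319 RPKM in 129, and 1477, 1461 and 1587 RPKM in B6. All B6 libraries lay above all others. Adipoq averaged 1289 ± 29.9 RPKM in 129 and 1508 ± 68.3 RPKM in B6 (SD, n = 3 each) and fell by 14.6% in 129 (log2 fold change -0.23, SE 0.06, adjusted p = 0.0114). F1 stood at 1349.9 ± 34.2 RPKM, with a log2 difference of -0.16 from B6 (95% interval -0.29 to -0.03, adjusted p = 0.0616), 0.07 from 129 (-0.06 to 0.20) and -0.05 from the mid-parent value (-0.16 to 0.07), and none of these passed. The call in 129 against B6 was lost without 129 replicate 2 (-0.21, adjusted p = 0.0514) and with no filter on low values (adjusted p = 0.0636). The difference between F1 and B6 passed with voom, with sample weights, with no variance trend and without B6 replicate 2 (-0.18, adjusted p = 0.0379).

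Leptin reports the size of the fat stores to the brain. Lep (chromosome 6, 29010221 to 29023876) was among the lowest of the genes tested, with 1.03, 1.06 and 1.19 RPKM in F1, 1.43, 1.41 and 1.40 RPKM in 129, and 1.30, 1.24 and 1.31 RPKM in B6. These values rest on 133 to 195 reads per library in F1, 108 to 131 in 129 and 77 to 115 in B6. Counting alone gives a relative error of 7.65%, 9.26% and 9.98% at the mean read number of F1, 129 and B6. All F1 libraries were below all parental ones, as for 9.7% of all genes. Lep was lower in F1 than in 129, at 0.773 of the 129 mean (log2 fold change -0.21, SE 0.06, adjusted p = 0.0238), and lower than the mid-parent value (-0.17, SE 0.05, adjusted p = 0.0374). Neither call was steady: the first was lost without F1 replicate 1 or 2 or any 129 library (adjusted p 0.0558 to 0.0721), and the second in 9 of 17 other settings. The difference between 129 and B6 was 0.08 (95% interval -0.05 to 0.21) and that between F1 and B6 -0.13 (-0.26 to 0.00275), and neither passed. With no variance trend Lep passed as lower in F1 than in B6 (adjusted p = 0.0499), the only 1 of 17 other settings to give that call.

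Resistin opposes insulin action in mice. Retn (chromosome 8, 3655770 to 3659818, 5 exons) had 246, 208 and 203 RPKM in F1, 139, 146 and 155 RPKM in 129, and 316, 295 and 317 RPKM in B6. The 3 groups formed separate bands, with F1 between the parents. Retn fell to 147 ± 8.38 RPKM in 129, against 309 ± 12.5 RPKM in B6 (log2 fold change -1.07, SE 0.07, adjusted p = 1.58e-06), and 2.04% of all genes changed at least as much in either direction. F1, at 219 ± 23.9 RPKM, was lower than B6 (-0.50, SE 0.07, adjusted p = 6.92e-04) and higher than 129 (0.57, SE 0.07, adjusted p = 3.45e-04). On the log2 scale F1 lay 46.6% of the way from the B6 mean to the 129 mean, and its difference from the mid-parent value was 0.04 (95% interval -0.11 to 0.18). Within a library, Retn stood at 0.162 ± 0.0136 of the Adipoq RPKM in F1, 0.114 ± 0.00536 in 129 and 0.205 ± 0.00749 in B6.

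Neuregulin 4 is a growth factor of the EGF family that brown and beige fat cells release and that acts through ErbB receptors. Nrg4 (chromosome 9, 55068029 to 55131432, 8 exons) had 6.08, 5.37 and 5.45 RPKM in F1, 3.71, 3.57 and 3.54 RPKM in 129, and 6.67, 5.69 and 6.36 RPKM in B6. The 129 libraries were the lowest, and those of F1 and B6 overlapped. Nrg4 was at 3.61 ± 0.0867 RPKM in 129 and 6.24 ± 0.499 RPKM in B6, 0.578 of the B6 mean (log2 fold change -0.65, SE 0.06, adjusted p = 1.51e-05). F1, at 5.63 ± 0.387 RPKM, was higher than 129 (0.52, SE 0.06, adjusted p = 1.70e-04) and differed from B6 by -0.13 (95% interval -0.26 to 0.01), which did not pass. The rise over the mid-parent value (0.20, SE 0.05, adjusted p = 0.0226) was lost without F1 replicate 1 (0.15, adjusted p = 0.0985), with no filter (adjusted p = 0.0507) and against the mean of the parental RPKM (0.16, adjusted p = 0.0508). Against B6, F1 passed as lower with sample weights (-0.21) and without B6 replicate 2 (-0.18, adjusted p = 0.0402).

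The promoters of Retn and Nrg4 are shown because these genes fell in 129 by the largest folds of the set. Each sequence is the 250 bases before the RefSeq start site on GRCm38.p6, a build other than the mm9 of the values, read along the gene's strand. Capitals mark matches to 8 motifs searched on both strands, listed with their shares below.
Retn, chr8:3655520-3655769, plus strand: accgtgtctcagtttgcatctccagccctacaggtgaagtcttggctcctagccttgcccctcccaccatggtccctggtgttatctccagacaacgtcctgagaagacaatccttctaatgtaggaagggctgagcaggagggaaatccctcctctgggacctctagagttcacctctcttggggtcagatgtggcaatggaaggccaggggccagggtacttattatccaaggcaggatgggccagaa
Nrg4, chr9:55283626-55283875, minus strand: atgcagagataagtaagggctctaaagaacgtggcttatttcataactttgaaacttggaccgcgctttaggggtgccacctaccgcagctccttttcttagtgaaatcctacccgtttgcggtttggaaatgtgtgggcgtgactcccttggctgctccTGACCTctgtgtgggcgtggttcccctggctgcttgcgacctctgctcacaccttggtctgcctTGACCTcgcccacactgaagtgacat
The Retn window held none of the motifs. The Nrg4 window held the nuclear receptor hexamer AGGTCA on the opposite strand at 90 and 26 bases before the start.

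Adipsin is a serine protease that cleaves factor B in the alternative pathway of complement. Its gene Cfd (chromosome 10, 79353598 to 79355405) had 155, 153 and 132 RPKM in F1, 163, 178 and 187 RPKM in 129, and 134, 125 and 136 RPKM in B6. All 129 libraries were above all others, while F1 and B6 overlapped through F1 replicate 3. Cfd rose to 176 ± 11.97 RPKM in 129, against 132 ± 6.31 RPKM in B6 (log2 fold change 0.41, SE 0.07, adjusted p = 0.00113). F1, at 147 ± 12.8 RPKM, was lower than 129 (-0.26, SE 0.07, adjusted p = 0.0224), a call lost without F1 replicate 3 (-0.19, adjusted p = 0.0738), 129 replicate 2 (-0.25, adjusted p = 0.0667) or 129 replicate 3 (-0.21, adjusted p = 0.0831). It differed from B6 by 0.15 (95% interval -0.01 to 0.31), which passed without F1 replicate 3 (0.23, adjusted p = 0.0328). Its difference from the mid-parent value was -0.05 (-0.19 to 0.08).

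Retinol-binding protein 4 carries vitamin A in blood and is made by liver and fat. Rbp4 (chromosome 19, 38191110 to 38199811, 7 exons) had 324, 342 and 313 RPKM in F1, 163, 195 and 188 RPKM in 129, and 173, 218 and 164.5 RPKM in B6. All F1 libraries were far above all parental ones, and the parents overlapped. The mean was 326 ± 14.7 RPKM in F1, 182 ± 16.4 RPKM in 129 and 185 ± 28.7 RPKM in B6. Rbp4 was 1.79-fold higher in F1 than in 129 (log2 fold change 0.84, SE 0.10, adjusted p = 1.83e-04) and 1.76-fold higher than in B6 (0.82, SE 0.10, adjusted p = 1.76e-04). It exceeded the mid-parent value by 0.83 (SE 0.09, adjusted p = 1.60e-04), the 34th largest absolute difference of the 11542 genes. Between 129 and B6 the log2 difference was -0.02 (95% interval -0.24 to 0.20, adjusted p = 0.908), an interval that leaves room for a modest change in either direction.

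RefSeq lists 2 start sites of Rbp4, and both upstream windows are shown because this gene departed most from both parents.
Rbp4 upstream start, chr19:38125322-38125571, minus strand: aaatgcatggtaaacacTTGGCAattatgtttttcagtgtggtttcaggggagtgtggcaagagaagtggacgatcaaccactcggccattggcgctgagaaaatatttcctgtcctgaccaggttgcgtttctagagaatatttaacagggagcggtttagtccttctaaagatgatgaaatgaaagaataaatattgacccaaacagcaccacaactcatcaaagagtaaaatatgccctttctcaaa
Rbp4 downstream start, chr19:38124812-38125061, minus strand: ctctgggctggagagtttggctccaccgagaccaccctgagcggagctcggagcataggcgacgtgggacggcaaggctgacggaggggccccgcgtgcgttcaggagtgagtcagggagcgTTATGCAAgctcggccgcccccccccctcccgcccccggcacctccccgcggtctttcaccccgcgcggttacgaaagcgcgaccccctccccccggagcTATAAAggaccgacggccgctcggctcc
The window of the downstream start held a TATA box, TATAAA, 28 bases before the start, and a C/EBP motif at 128 bases. That of the upstream start held the NFI motif TTGGCA 233 bases before it. The downstream window lies partly within the first exon of Rbp4 transcripts that start farther upstream, as GENCODE gives them on the same build, and the RNA values do not tell the 2 starts apart. GC content was 40.8% in the upstream window and 70.8% in the downstream window.

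The motifs searched were the full palindromic NFI site, present in 0.0365% of 32851 windows of this length, TTGGCA (12.3%), the DR1 site of PPARγ and RXR (0.0335%), AGGTCA (14.0%), the C/EBP motif TTGCNNAA (9.56%), the E-box CACGTG (6.02%), the sterol motif TCACNNCAC (3.11%) and TATAAA (12.4%). Among the 10945 windows of tested genes, the shares of the motifs found here were 6.46% for TATAAA, 9.40% for TTGGCA, 10.8% for AGGTCA and 7.51% for TTGCNNAA. AGGTCA lies within the DR1 site and TTGGCA can overlap the NFI palindrome. RefSeq windows were matched for 7 of the 9 genes, in 8 windows. In these 8, AGGTCA and the C/EBP motif were present in 2 each, TTGGCA and TATAAA in 1 each, and the other 4 motifs in 0. A C/EBP match, TTGCGCAA, lay in the Lep window, 55 bases before the start. Rarres2 and Car3 were not matched. These are matches of letters and say nothing of binding.

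In a look at neighbours made after the data were examined, both Rbp4 and the nearest tested gene on its downstream side had all F1 libraries above all parental ones. Ffar4, a receptor for long-chain fatty acids on the plus strand, ends 2.4 kb from the end of Rbp4, which lies on the minus strand. It had 34.0, 34.8 and 34.3 RPKM in F1, 17.0, 20.3 and 20.7 RPKM in 129, and 20.3, 23.2 and 22.6 RPKM in B6. Ffar4 was higher in F1 than in 129 (log2 fold change 0.80, adjusted p = 2.58e-05), than in B6 (0.62, adjusted p = 1.22e-04) and than the mid-parent value (0.71, adjusted p = 6.13e-05). The nearest tested gene on the other side, Fra10ac1 at 63.2 kb, differed from the mid-parent value by 0.06 (adjusted p = 0.532). Next to Retn, Stxbp2 at 12.1 kb was lower in 129 than in B6 (-0.27, adjusted p = 0.00234) and Mcemp1 at 5.9 kb differed by 0.09 (adjusted p = 0.639). Such an excess in F1 was not limited to Rbp4 and Ffar4: F1 libraries also lay above all parental ones for Stxbp2 (0.48 over the mid-parent value, adjusted p = 9.19e-05) and for the neighbours of Nrg4, Etfa (0.34, adjusted p = 2.29e-04) and Ube2q2 (0.26, adjusted p = 0.00786). Masp1, 293.8 kb from Adipoq, went the other way, with all F1 libraries below all parental ones (-0.42 from the mid-parent value, adjusted p = 0.0012). Over all genes tested, F1 libraries lay above all parental ones for 5.72% and below them for 9.7%. Ube2q2 and Etfa, at 12.7 and 170.8 kb from Nrg4, differed between 129 and B6 by 0.00478 (adjusted p = 0.962) and -0.18 (adjusted p = 0.0091).

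**Figure D3:**
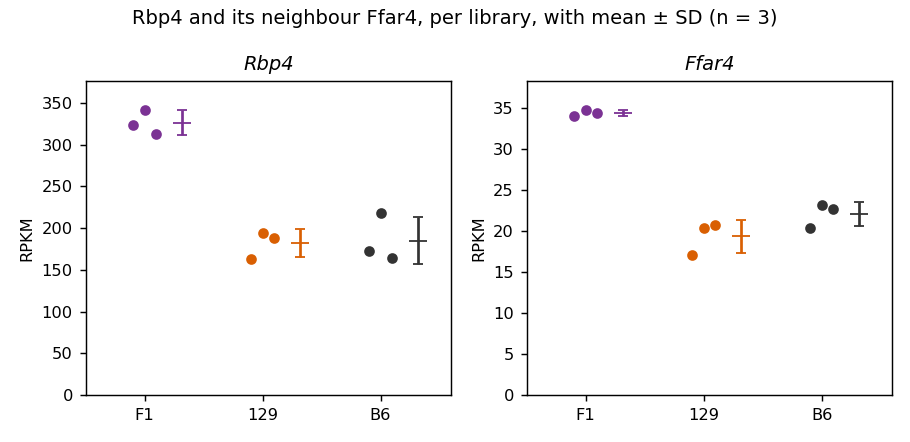
RPKM of Rbp4 and of its neighbour Ffar4 (vertical axes, from 0) in the 3 libraries of F1, 129 and B6, with mean and SD. For both genes all F1 libraries lay above all 6 parental libraries.

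Chemerin, the product of Rarres2, is a precursor that proteases turn into a ligand of the receptor CMKLR1, which attracts immune cells. Rarres2 (chromosome 6, 48519697 to 48522669) had 119.7, 101 and 98.1 RPKM in F1, 86.5, 85.5 and 81.5 RPKM in 129, and 60.2, 64.2 and 58.4 RPKM in B6. The groups did not overlap, with F1 highest and B6 lowest. Rarres2 was higher in 129 than in B6, at 84.5 ± 2.65 against 60.9 ± 2.98 RPKM (log2 fold change 0.47, SE 0.07, adjusted p = 4.26e-04). F1, at 106 ± 11.7 RPKM, was higher than 129 (0.32, SE 0.07, adjusted p = 0.00707) and B6 (0.79, SE 0.07, adjusted p = 2.71e-05), and exceeded the mid-parent value by 0.55 (SE 0.06, adjusted p = 2.07e-04). The exons of Rarres2 share 323 of their 708 bases with Lrrc61 on the other strand. The library kit keeps strand, but whether counting used it is not given in the sources used here, so the levels of Rarres2 and Nrg4 are uncertain. Lrrc61 itself had 4.56 RPKM in F1, 3.99 in 129 and 4.15 in B6 and passed in none of the 4 comparisons. Nrg4 shares 166 bases, 8.61% of its exon length, with Fbxo22 on the other strand, which had 23.0 RPKM in F1, 21.4 in 129 and 21.7 in B6. Fbxo22 passed as higher in F1 than in 129 (0.10, adjusted p = 0.0496) and than the mid-parent value (0.09, adjusted p = 0.0493), the direction of Nrg4 in both, and its part in the Nrg4 values was not tested. The other 7 genes share no exon bases with another gene of the files.

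Nampt is the rate-limiting enzyme of NAD salvage from nicotinamide and is also found outside cells. Nampt (chromosome 12, 33505200 to 33538234, 11 exons) had 146, 139 and 147 RPKM in F1, 114, 116 and 116 RPKM in 129, and 104, 107 and 97.6 RPKM in B6. Here too the groups did not overlap, with F1 highest and B6 lowest. F1, at 144 ± 4.46 RPKM, was higher than 129 at 115 ± 1.15 RPKM (log2 fold change 0.32, SE 0.05, adjusted p = 5.54e-04) and B6 at 103 ± 4.89 RPKM (0.49, SE 0.05, adjusted p = 3.30e-05). It exceeded the mid-parent value by 0.40 (SE 0.04, adjusted p = 1.08e-04). Nampt was also higher in 129 than in B6 (0.17, SE 0.05, adjusted p = 0.0143), which did not pass without B6 replicate 3 (0.13, adjusted p = 0.0598).

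Carbonic anhydrase III was, by RPKM, the most abundant of the carbonic anhydrases examined. Car3 (chromosome 3, 14863538 to 14872373, 7 exons) had 1229.7, 1018 and 1088 RPKM in F1, 954, 1057 and 1027 RPKM in 129, and 698, 719.9 and 736 RPKM in B6. The B6 libraries were the lowest, and those of F1 and 129 overlapped. Car3 was 1.41-fold higher in 129 than in B6, at 1013 ± 52.7 against 718 ± 18.8 RPKM (log2 fold change 0.49, SE 0.07, adjusted p = 4.09e-04). It was 1.55-fold higher in F1, at 1112 ± 108 RPKM, than in B6 (0.63, SE 0.07, adjusted p = 1.55e-04). F1 differed from 129 by 0.13 (95% interval -0.03 to 0.30, adjusted p = 0.228), which did not pass, and exceeded the mid-parent value by 0.38 (SE 0.06, adjusted p = 0.0024). Per Adipoq RPKM, Car3 stood at 0.823 ± 0.059 in F1, 0.786 ± 0.0495 in 129 and 0.476 ± 0.0149 in B6.

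**Figure D4:**
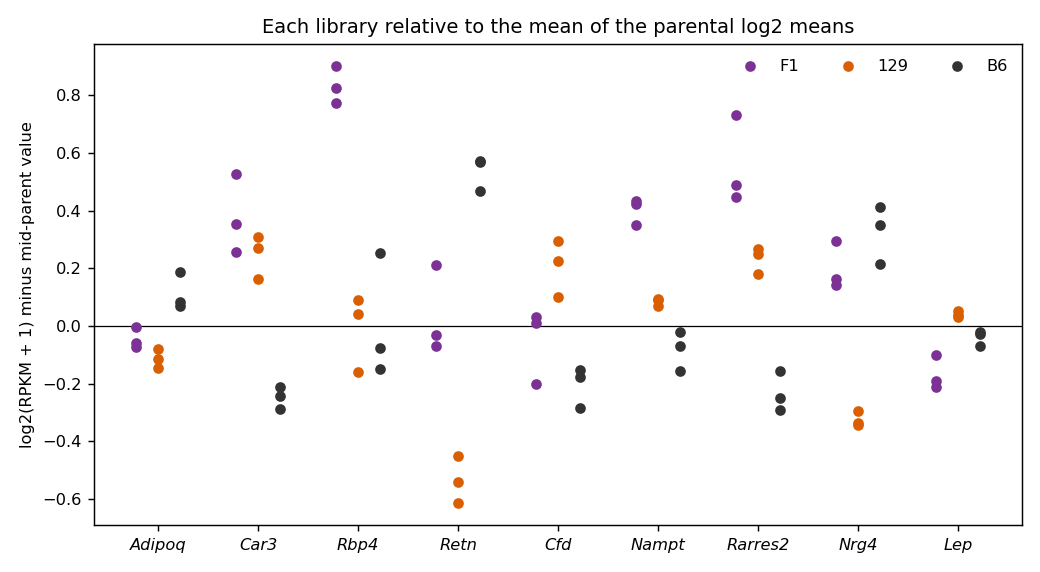
Log2(RPKM + 1) of each library minus the mid-parent value of the gene (vertical axis), for F1, 129 and B6 (points, 3 per group). The F1 points of Rbp4, Rarres2 and Nampt lie above all parental points, those of Lep below them, and those of Retn between the parents.

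Of the receptors and partners of these proteins, some were hardly expressed. The adiponectin receptors Adipor1 and Adipor2 had 67.1 and 295 RPKM in F1, 64.8 and 282 RPKM in 129, and 62.5 and 294 RPKM in B6, and neither passed in any of the 4 comparisons. Cdh13, T-cadherin, which binds adiponectin multimers, was lower in F1 and 129 than in B6 (0.921, 0.916 and 1.98 RPKM in F1, 129 and B6, log2 fold changes -0.63 and -0.64). Cmklr1, the chemerin receptor, was lower in F1 and 129 than in B6 as well (1.44, 1.64 and 2.28 RPKM in F1, 129 and B6, log2 fold changes -0.43 and -0.31). Cap1, a protein reported to bind resistin in human monocytes, was higher in 129 than in B6 (106 against 76.2 RPKM, 0.47, adjusted p = 3.78e-06). Lepr, Gpr1, Ccrl2, Erbb3, Stra6 and the retinol-binding protein partner Ttr fell below the filter, with group means of at most 0.273 RPKM, and the neuregulin receptor Erbb4 was listed at 0 in all libraries. Of the 9 tested of 16 listed, which also held the insulin receptor Insr, Egfr, Tlr4 and the lactate receptor Hcar1, 3 were higher and 4 lower in 129 than in B6 (median log2 fold change -0.06). Against the mid-parent value 5 were lower in F1 and the other 4 did not pass (median -0.17), and 3 passed without F1 replicate 1 or 3. Over all genes tested, 15.9% were higher and 21.7% lower in 129 than in B6, and 8.35% higher and 14.8% lower against the mid-parent value.

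**Figure D5:**
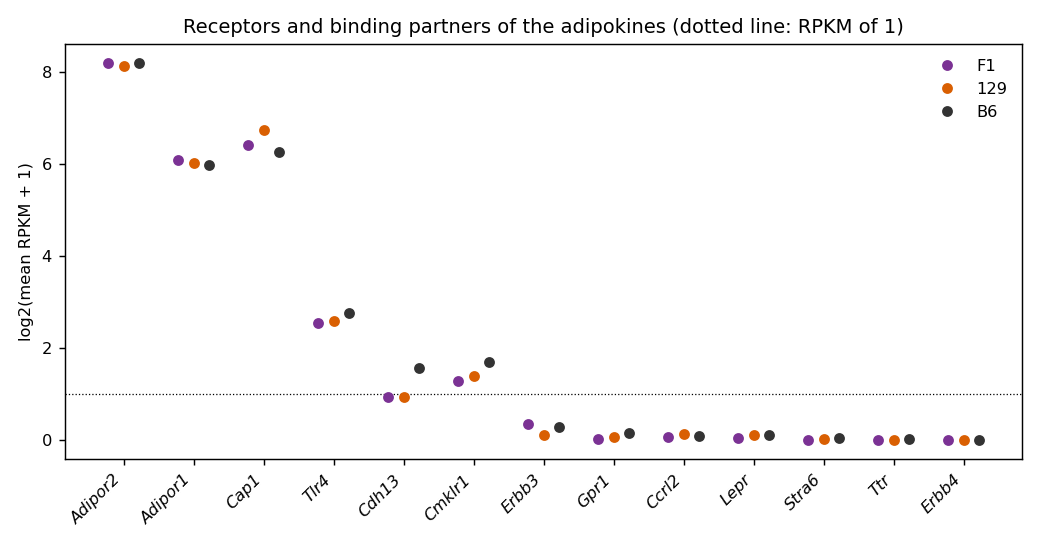
Log2(mean RPKM + 1) of receptors and binding partners of the adipokines in F1, 129 and B6 (n = 3 libraries per mean). The dotted line marks an RPKM of 1; Adipor2, at 295 RPKM in F1, was the highest and Erbb4 was listed at 0.

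Relatives of the adipokine genes were mostly low. Of the resistin-like genes Retnla had 0.671 RPKM in F1, 0.653 in 129 and 1.07 in B6 and was not tested, and Retnlb was listed at 0 throughout. Nrg1 was the other neuregulin tested and was higher in 129 than in B6 (1.28 against 0.766 RPKM, log2 fold change 0.37, adjusted p = 0.0153). Among carbonic anhydrases Car5b had 154 RPKM in F1, 166 in 129 and 168 in B6 and passed in no comparison, while the membrane enzyme Car4 (2.94 against 1.22 RPKM, 0.84, adjusted p = 1.70e-04) and Car11 (9.66 against 6.67 RPKM, 0.48, adjusted p = 1.74e-04) were higher in 129 than in B6, as Car3 was. Car2, 14.1 kb from Car3 on chromosome 3, was lower in 129 (51.7 against 65.5 RPKM, -0.32, adjusted p = 0.0482), a call lost with no filter, with rescaling, and without F1 replicate 3, 129 replicate 1 or 2, or B6 replicate 1 or 3. In all, 3 of the 8 relatives tested were higher and 1 lower in 129 than in B6, with a median log2 fold change of 0.10. The count was 2 without 129 replicate 1, and 37.5% of all genes passed with all libraries.

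Genes that work beside the adipokines were counted in lists chosen with earlier results of these data known. Shares over all genes, to set beside every list count, were 37.5% in 129 against B6, 15.9% as higher and 21.7% as lower. Against the mid-parent value they were 23.2%, 8.35% as higher and 14.8% as lower. A list count near these shares is no finding about the list. Of 13 complement genes tested around adipsin, 5 were higher and 3 lower in 129 than in B6 (median 0.11), among them the membrane inhibitor Cd59a (14.3 against 5.86 RPKM, log2 fold change 1.16) and C3, the protein on which the alternative pathway turns (108 against 163 RPKM, -0.59). Against the mid-parent value 1 complement gene was higher in F1 and 9 lower (median -0.33), with C1s1 at -0.27. Of 11 genes of adiponectin assembly and secretion, 4 were higher and 1 lower in 129 than in B6 (median 0.04). These included the oxidoreductase Ero1l (193 against 117 RPKM, 0.73) and the collagen lysyl hydroxylase Plod2 (85.7 against 27.5 RPKM, 1.61), and Ero1l exceeded the mid-parent value in F1 by 0.74 (250 RPKM in F1). Of 13 genes of NAD synthesis and use, 4 were higher and 6 lower in 129 than in B6 (median -0.13), with Nnmt, which methylates nicotinamide, at 65.4 against 104 RPKM (-0.65). Sirt3, the mitochondrial NAD-dependent deacylase, was higher in F1 than the mid-parent value (0.38, adjusted p = 4.59e-04), as 2 of the 13 were, with 2 lower.

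Among 27 tested of 35 other secreted factors, 9 were higher and 8 lower in 129 than in B6 (median 0.09). Against the mid-parent value 5 were higher and 9 lower in F1 (median -0.15), with 9 calls in all without F1 replicate 3. Of all genes, 37.5% passed in the first comparison and 23.2% in the second. Haptoglobin, Hp, had 391 RPKM in 129 against 824 in B6 (log2 fold change -1.07), the size of the Retn change, while Nucb2 (29.2 against 11.8 RPKM, 1.24) and the hormone Fgf21 (11.1 against 5.38 RPKM, 0.92) were higher in 129. The angiogenic factor Vegfa exceeded the mid-parent value in F1 (0.44), and Slit2 was below it (-0.58). Of a C1q/TNF list, 7 genes were tested, Emilin1 and Emilin2 among them. In 129, 3 were higher and 1 lower than in B6 (median 0.06). Against the mid-parent value 1 was higher in F1 and 5 lower (median -0.25), with Emilin1 (-0.26) and Emilin2 (-0.28) among the lower. C1qtnf6 had 30.6 RPKM in 129 against 16.8 in B6 (0.83), and Fam132a, adipolin, had 47.3 against 60.5 (-0.35).

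Of 14 transcription factors listed for adipokine promoters, 2 were higher and 4 lower in 129 than in B6 (median -0.04). Whether each of them acts at these promoters was not tested. The count of 6 became 3 without 129 replicate 1, 2 or 3 or without B6 replicate 3. In F1, 1 factor was higher and 1 lower than the mid-parent value (median -0.02). For this list and those below, 37.5% of all genes passed in 129 against B6, and 23.2% against the mid-parent value. Pparg, the target of rosiglitazone, was the factor higher in F1, at 110 RPKM in F1, 95.4 in 129 and 91.2 in B6 (0.23 above the mid-parent value, adjusted p = 0.00506), and its partner Rxra was the lower one (-0.27). Of the 16 mature adipocyte genes, 3 were higher and 5 lower in 129 than in B6 (median -0.11), such as Pck1 (16.9 against 7.14 RPKM, 1.14) and the glucose transporter Slc2a4 (98.8 against 127 RPKM, -0.36), and 2 were higher and 2 lower in F1 than the mid-parent value (median -0.03), a count of 4 that became 2 without F1 replicate 1 or 2 and 8 without B6 replicate 2. Of 9 beige and brown genes tested of 11 listed, 2 were higher and 4 lower in 129 than in B6 (median 0.06). Tmem26 and Tnfrsf9 fell below the filter, with group means of at most 0.207 RPKM. The higher ones were Ucp1, the uncoupling protein (2.55), and Cidea (0.79), and the lower ones included the cytochrome oxidase subunit Cox8b (-0.88) and the adrenergic receptor Adrb3 (-0.55). Of the same 9, 4 were higher and 1 lower in F1 than the mid-parent value (median 0.07). Of 11 fibroblast and progenitor markers tested, 7 were higher and 1 lower in 129 than in B6 (median 0.47), and 9 were lower in F1 than the mid-parent value (median -0.43). Of 11 macrophage markers tested, 4 were lower in 129 than in B6 and the other 7 did not pass (median -0.47). Of 7 smooth muscle markers tested, 5 were lower in 129 than in B6 (median -0.45), and 5 were lower in F1 than the mid-parent value (median -0.38). The 2 endothelial markers tested were lower in 129 than in B6, and Krt19 and S100a8, the only epithelial and neutrophil markers tested, were higher (0.88 and 1.43).

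Across the 9 libraries, the pairs of adipokine genes with the highest correlation of log2 values were Rarres2 with Car3 (Pearson r = 0.95), Retn with Nrg4 (0.94) and Nampt with Rarres2 (0.93), and the lowest was Lep with Rbp4 (-0.89). These are descriptions over 9 libraries that fall into 3 groups. Among 10719 genes compared, those most like Rbp4 were the mitochondrial protease Lonp1 (r = 0.995), Bnip3 (0.991) and the glycolytic enzyme Gpi1 (0.990), each highest in F1 (125, 868 and 818 RPKM in F1, 90.6, 614 and 556 in 129, 91.6, 616 and 561 in B6). Those most like Retn were Mtfr1l, Spryd7 and Ndrg2 (r of 0.990 to 0.991), and 242 genes reached an r of at least 0.95 with it. For Nrg4 they were Mrpl9, Atp6v1b2 and Ldhb (0.987 to 0.991), for Car3 Impdh1, Dus2 and Fhl1 (0.978 to 0.992), and for Rarres2 Cyp2d22, Isg20 and Ppp3cc (0.978 to 0.989). Adipoq ran closest to Akt1s1, Bcat2 and Dhrs3 (0.980 to 0.982), Nampt to Narf, Pcca and Fam117b (0.981 to 0.985), Cfd to Ebpl, Naf1 and Erp29 (0.968 to 0.975), and Lep to Ubxn8, Mapk1ip1l and Mlec (0.964 to 0.966).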

How the data were processed

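Poly(A) RNA libraries were made with a stranded kit, per the labels' protocols. Reads were aligned with STAR to mm9, per the submitters' processing notes. For the read counter, its strand setting, the annotation release and the versions, no value is given in the sources used. The authors deposited RPKM, 1 value per gene and library. RPKM times exon length summed to a constant in every library, and the 1-read steps gave back the number of assigned reads, with all non-zero rows whole to within 0.1 read. mm9 is B6 sequence, and loss of 129 reads that differ from it was not measured. Replicate libraries differed by 3.83 to 15.1 times counting noise (chi-square over degrees of freedom), so none was a copy.

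Where a symbol had several rows (2 of 24013), the row of highest mean was taken. The scale was log2(RPKM + 1), on which changes of low genes such as Lep are understated. The tool was limma 3.58.1 (R 4.3.3): 1 mean per group, all 9 libraries, a mean-variance trend, two-sided tests, and Benjamini-Hochberg adjustment over the 11542 genes that reached an RPKM of 1 in 3 or more libraries. Calls were made at 0.05. SE is the standard error of a log2 fold change, and folds of means are on plain RPKM. The fitting step was checked on simulated reads for 129 minus B6 only. That simulation had a fixed spread and fewer changed genes than were called here, so it does not vouch for these calls. Lists were described without a set test. The members, the lists and the tests were chosen with earlier results of these data known. All 9 members were named. From the lists, names were drawn from the 4 genes of smallest p past the threshold in 129 minus B6 and in F1 minus mid-parent, and from the tested receptors and relatives. For each member the 3 genes with the highest correlation were named. Other genes named were chosen after their values were seen. Some genes of the lists are not reported here.

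Replicate numbers in the titles were checked for pairing: deviations of same-numbered libraries had r of -0.19 to 0.22 in 9 pairs. Those of other pairs had r of -0.2 to 0.23, and no block was used. Alternatives were a pseudocount of 0.1, no filter, a filter at RPKM of 5, rescaling by median of ratios, voom on the recovered reads, sample weights, no trend, only the groups compared, the replicate block, a mid-parent value from mean RPKM, and leaving out each library. Cells in unnamed columns, on at most 31 rows, were not used.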

Additional observations from a re-analysis of the deposited data

How the results depend on the processing

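The number of adipokine genes past the threshold stayed within 1.5 times its reported value in every setting tried. Leaving out 1 library gave 6 to 7 in 129 against B6 (7 with all libraries), 5 to 7 in F1 against B6 (5), 5 to 7 in F1 against 129 (7) and 4 to 6 in F1 against the mid-parent value (6). The other settings gave 6 to 7, 5 to 7, 6 to 7 and 5 to 6. Over all genes, leaving out 1 library gave 3532 to 4487, 2597 to 3733, 2238 to 3528 and 1799 to 3048 calls. With the replicate block the counts of the 9 genes were 7, 5, 7 and 5, where Lep against the mid-parent value no longer passed (adjusted p = 0.0562), and those over all genes 4267, 3546, 3066 and 2587. The numbers were not taken to pair the libraries: 4 of 9 same-numbered pairs had r over 0.1, and other pairs reached 0.23. Between 129 and B6, same-numbered pairs had r of 0.07, 0.12 and 0.22 and other pairs -0.17 to 0.05. Pairing of these strains is thus not settled.

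Directions turned for 3 differences that were not called. Rbp4 in 129 against B6 became 0.0137 with rescaling, 0.0667 with sample weights, 0.0578 without 129 replicate 1 and 0.105 without B6 replicate 2, over a range of -0.0966 to 0.105. Retn in F1 against the mid-parent value became -0.025 with sample weights, -0.0511 without F1 replicate 1 and -0.0622 against the mean parental RPKM, and ran from -0.0511 to 0.0897 when 1 library was left out. Cfd there became 0.0202 without F1 replicate 3, in a range of -0.0952 to 0.0202. The cause was not tested. Lep had no value with the filter at RPKM of 5, since it falls below it. The Retn, Rbp4, Rarres2 and Car3 calls, and those of Nrg4 in 129 against B6 and F1 against 129, of Nampt in F1 and of Cfd in 129 against B6, held in all settings run. Of 1144 counts for the lists, 1063 were within 1.5 times the reported count and 81 were not. Depth limits Lep, and to a lesser degree Nrg4, which had 162 to 553 reads per library.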
